A study of Mus musculus with 96 samples.

Results

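The segment described here is the 2.08 Mb of mouse chromosome 4 that borders an engineered deletion in band 4E2 on its upstream side, chr4:148000001-150083825 in mm9 (NCBI37). Its members are the HindIII fragments that end between these positions. There were 502 of them among the 48320 fragments of the chromosome, and 493 remained once the fragments ending within 20 kb of viewpoint 2 were left out. Contacts were measured by PE-4Cseq, which ligates cross-linked chromatin, amplifies the products of a chosen restriction fragment (the viewpoint) and counts reads on every fragment ligated to it (the captures). A strain polymorphism in the viewpoint read assigns each product to a parental chromosome. All libraries came from mouse embryonic fibroblasts (MEFs) of day 13.5 F1 embryos with a 129S5 and a C57Bl6 copy of chromosome 4. In the Df cross the fathers were Df/Dp chimeras, made with engineered 129S5 cells, and the mothers were C57Bl6. Lines E71 and E98 carried Df, the 129S5 chromosome 4 with the deletion, which had been engineered in 129S5/SvEvBrd embryonic stem cells, beside +DBl6, the intact C57Bl6 homologue. The control lines E117 and E118 carried +129 and +Bl6, both undeleted. Each chromosome was thus measured in 2 lines at each of 12 viewpoints, 96 libraries in all, and p-values measure the spread between these lines only. The counts hold contacts and no expression, so the cell type could not be checked against marker genes.

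In chromatin, the chance that 2 loci meet falls as the DNA between them grows longer. A deletion brings the sequences on either side of it closer together, and pairs that were separated by the lost segment become near neighbours on the joined fiber. Viewpoints 1 (147.9 Mb) and 2 (148.9 Mb) lie upstream of the deletion, the latter within the flank itself. Viewpoints 3 to 10 (150.4 to 153.9 Mb) lie in the deleted segment, and viewpoints 11 (154.9 Mb) and 12 (155.5 Mb) beyond it. On Df, viewpoints 11 and 12 are the ones whose path to the flank was shortened.

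The flank is gene rich. The gencode annotation of NCBIM37 places 59 genes there, 27 of them protein coding, or 13 per Mb against 8.88 per Mb over the chromosome and 11.1 per Mb in the deleted interval. Its GC content was 48.1%, against 42.3% for the chromosome. From the centromere side to the deletion, the longer genes are Gm572, Casz1 (a zinc finger transcription factor), Pex14 (a docking protein of peroxisomal import), Kif1b (a kinesin motor), Ube4b (a ubiquitin chain elongation factor), Ctnnbip1 (an inhibitor of beta-catenin), Clstn1 (calsyntenin), Pik3cd (the delta catalytic subunit of PI3-kinase), Tmem201 (an inner nuclear membrane protein), Slc25a33 (a mitochondrial nucleotide carrier), Spsb1 (a SOCS box adaptor), H6pd (a hexose-6-phosphate dehydrogenase of the endoplasmic reticulum), Slc2a5 (the fructose transporter), Rere (a nuclear receptor corepressor of the atrophin family) and Slc45a1 (a sugar transporter). Rere spans 340 kb and ends 87.8 kb before the deletion, and Slc45a1 ends 57.5 kb before it.

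The edges of the deletion were read from the counts. The stretch in which Df lost its reads ran from chr4:150083826 to chr4:154411694, 4.33 Mb with 1108 fragments, and the search gave the same edges without viewpoint 1, 2 or 12. Without viewpoint 11 it began at 150081026. The HindIII sites at these edges are shown because they bound the sequence that is joined on Df, and the following ones because their fragments were captured in the most control libraries. Each is the plus strand of NCBIM37, 5′ to 3′, with 30 bases on either side and the HindIII site in capitals.
last site of the flank, chr4:150083790-150083855: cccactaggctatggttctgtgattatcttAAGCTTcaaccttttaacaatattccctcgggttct
last site of the deleted interval, chr4:154411659-154411724: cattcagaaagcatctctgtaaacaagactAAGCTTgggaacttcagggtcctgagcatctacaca
first site of the flank, chr4:147999996-148000061: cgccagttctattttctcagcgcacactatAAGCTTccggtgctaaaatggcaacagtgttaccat
Gm572 site, chr4:148029141-148029206: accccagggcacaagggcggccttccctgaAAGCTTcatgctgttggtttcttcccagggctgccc
Casz1 site, chr4:148292402-148292467: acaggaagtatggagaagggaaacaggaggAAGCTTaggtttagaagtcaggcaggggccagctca
Pex14 upstream site, chr4:148397964-148398029: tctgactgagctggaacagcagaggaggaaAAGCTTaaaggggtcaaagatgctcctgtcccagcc
Pex14 downstream site, chr4:148436801-148436866: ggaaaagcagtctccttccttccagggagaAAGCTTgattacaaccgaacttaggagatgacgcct
The last site of the flank lies in intergenic sequence, the last site of the deleted interval in an intron of Plch2, and the first site of the flank in an intron of Tardbp, which encodes the RNA-binding protein TDP-43. The Gm572, Casz1 and Pex14 sites are intronic as well.

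A fragment counts as captured when it has at least 1 read. Of the 493 members, 8 were captured in none of the 96 libraries and 11 in none of the 42 control libraries used (+129 and +Bl6, without viewpoint 2). These 42 were counted as labelled, without the 2 libraries of viewpoint 10 that had too few reads. The median member was captured in 18 of those 42, and 180 members in at least 50% of them. The 5 leading fragments shown above were each captured in 33. With the control pairs that appear to share molecules added up, the median was 18 of 40 and the same 5 fragments led, at 31 to 32. Members that were never captured were short, with a median length of 1.07 kb against 2.94 kb for the others. All 5 leading fragments lie on the side away from the deletion, between the Tardbp edge and Pex14. The fragment that touches the deletion was captured in 20 of the 42 control libraries, against the median of 18.

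Libraries of viewpoints 11 and 12 held 114765 to 975065 reads outside the viewpoint zone. Several libraries stood apart. In 6 groups the reads of both lines at shared distant fragments correlated at 0.937 to 0.972 (+DBl6 at viewpoints 4, 6, 7 and 8, and +129 and +Bl6 at viewpoint 9), and each such shared pair was added up and counted as 1 library. Both E117 libraries of viewpoint 10 had fewer than 1000 reads outside the viewpoint zone and give no value. The deleted interval served as a check of the labels at the viewpoints the Df comparison rests on. At viewpoint 12 it took 0.178% and 0.343% of reads on Df (E71 and E98) and 11.9% and 12% on +129 (E117 and E118). At viewpoint 11 it took 0.577% and 0.748% on Df and 7.33% on +129 of E118, but 1.63% in the library labelled +129 of E117, whose C57Bl6 counterpart had 6.78%. That library shared 61.3% of the smaller library's distant captured fragments with Df of E71, with a correlation of log reads of 0.678, whereas the Df lines shared 33.9% with each other at 0.229. It therefore went against its label. For Df against +129, the main shares, tests and counts at viewpoint 11 are given with and without it. Levels of genes and stretches are given for each library. Medians over undeleted chromosomes, captures over control libraries, window tests of +129 against +Bl6 and the count of windows by batch include this library. The +DBl6 library of E71 and the +Bl6 library of E117 at viewpoint 11 also shared fragments (62.2%, correlation 0.72). At viewpoint 10 the +DBl6 library of E98 shared 75.7% with +Bl6 of E118 (correlation 0.579). It shared 20.8% with +DBl6 of E71 (correlation 0.228). It was kept as a library of its own, so its values may not be independent of those of E118.

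On undeleted chromosomes the flank's share of contacts did not fall steadily with distance. Shares are percentages of the chromosome 4 reads outside 20 kb of the viewpoint. Viewpoint 2, within the flank, gave 72.6% to 84.8% of its reads to it over 6 libraries of +129, +Bl6 and +DBl6, and viewpoint 1 gave 18.9% to 23.6%. The fragment that adjoins viewpoint 2 upstream is counted, because the 20 kb zone is measured from the viewpoint fragment's other end. It held 5.1% and 4.91% of the flank reads of viewpoint 2 on +129 and 4.85% on +Bl6 of E117. Viewpoint 3, only 0.349 Mb past the flank's end, gave a median of 7.51% (7.33% to 8.63%, 6 libraries). The share then dropped to a median of 1.75% at viewpoint 4 and 2.58% at viewpoint 5. It was lowest at viewpoints 6, 7 and 8, which lie 2.06 to 2.84 Mb from the flank, with medians of 0.411%, 0.359% and 0.287%. Farther away it was higher again, with a median of 1.2% at viewpoint 9, 1.39% at viewpoint 10, 2.58% at viewpoint 11 (4.87 Mb away) and 1.46% at viewpoint 12 (5.47 Mb away). The lowest library of viewpoint 9, at 0.697%, was below the highest of viewpoint 8, at 1.07%, so these neighbours overlapped. Every library of viewpoints 10, 11 and 12 was above every library of viewpoints 6 to 8 apart from that +DBl6 value of viewpoint 8 and, among the later ones, the 0.987% of +129 of E118 at viewpoint 12.

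**Figure D1:**
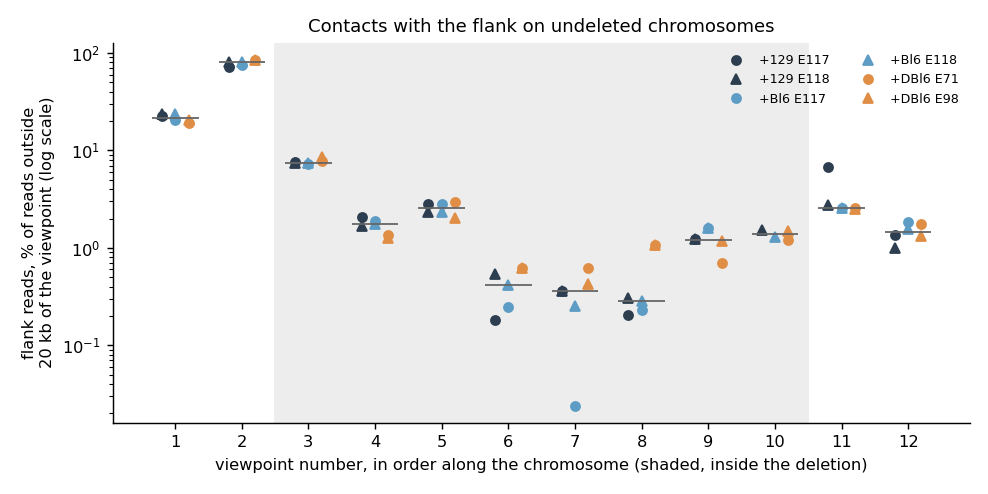
Share of reads on the flank (percent of chromosome 4 reads outside 20 kb of the viewpoint, log axis) for each library of an undeleted chromosome, by viewpoint number. Points are libraries, grey bars the median with shared pairs counted once. The share is lowest at viewpoints 6 to 8 and higher at viewpoints 9 to 12, and the library labelled +129 of E117 stands above the others at viewpoint 11.

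By captured fragments the median share of the flank was also lowest at viewpoints 6 to 8, while viewpoints 3 and 11 overlapped. The flank held a median of 5.76% of all captured fragments at viewpoint 3 (4.98% to 9.16%) and 1.86%, 1.55% and 1.56% at viewpoints 6, 7 and 8. At viewpoint 11 the median was 6.69% (4.74% to 8.47%), with the library labelled +129 of E117 included at 7.85%. The lowest shares rest on few reads. The 0.0241% of +Bl6 of E117 at viewpoint 7, the lowest of all, came from 28 reads on 13 fragments, and the 0.203% and 0.232% of +129 and +Bl6 of E117 at viewpoint 8 came from 57 and 45 reads. The highest shares of these viewpoints, on +DBl6, came mostly from single fragments. At viewpoint 8 the fragment ending at 149634070 alone held 71.4% and 71% of the flank reads of +DBl6 in E71 and E98, and at viewpoint 7 the fragment ending at 148139090 held 86.4% and 72.7%.

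Reads were unevenly spread along the flank from the near viewpoints. Levels along the flank are in RPM per 100 kb, the reads on a stretch per 1000000 reads outside the viewpoint zone and per 100 kb of its fragments. From viewpoint 1 the part over 1.5 Mb from the deletion received a median of 26929 RPM per 100 kb, against 3925 in the 0.5 Mb next to the deletion. From viewpoint 3 the order was turned around, with 1991 in the far part and 7395 in the 0.5 Mb next to the deletion, where 94.5% of fragments were captured (median of 6 libraries). Rere and Slc45a1 lie in that near part. At mid distance the sparse reads were uneven as well, with medians of 282, 232, 40 and 70.8 from the far to the near part at viewpoint 7. From viewpoints 11 and 12 the medians differed less. Viewpoint 11 gave medians of 1370, 1389, 1141 and 1229 RPM per 100 kb from the far to the near part, and viewpoint 12 gave 1045, 569, 543 and 709. Accordingly, the 1.04 Mb on the deletion side took a median of 16% of flank reads from viewpoint 1, 74% from viewpoint 3, 73.3% from viewpoint 8, 48.8% from viewpoint 11 and 49.8% from viewpoint 12. The viewpoint 8 value rests on sparse reads and ranged from 65.1% to 96.5%. There the median part of fragments captured was 10.6%, 11.5%, 10.8% and 8.03% from the far to the near part, lowest next to the deletion.

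Whether the flank was contacted more often by the sequence beyond the deletion was asked by comparing Df with +129. At viewpoint 12 the flank took 2.39% of reads on Df of E71 and 1.91% on Df of E98, against 1.34% and 0.987% on +129 of E117 and E118. Both Df libraries were above both controls, with means of 2.15% ± 0.338 and 1.16% ± 0.249 (SD, n = 2 each) and a 1.86-fold ratio of geometric means (0.90 on the log2 scale). The log2 ratio was 0.84 within the purification batch of E71 and E117 (columns) and 0.95 within that of E98 and E118 (magnetic beads). At viewpoint 11 Df gave 8.13% and 6.22%, the library labelled +129 of E117 gave 6.7% and +129 of E118 gave 2.73%. These groups overlapped, with a ratio of 1.66 (log2 0.73), and without the E117 library the log2 ratio was 1.38. Within the batches it was 0.28 and 1.19. The exact two-sided permutation test on log2 values gave p = 0.333 at viewpoint 12 and p = 0.667 at viewpoint 11. With 2 libraries against 2 it cannot go below 0.333, and with 1 against 2 not below 0.667, so no such comparison could pass a threshold of 0.05. The denominator of these shares includes the deleted interval, which took few reads on Df. With that interval left out of it, the log2 ratio was 0.72 at viewpoint 12 and 0.68 at viewpoint 11. At viewpoint 12 the 95% Wilson interval of the reads was, for example, 1.84% to 1.99% for Df of E98 and 1.27% to 1.41% for +129 of E117. These intervals treat every read as independent and do not cover the spread between lines. PCR reads carry no molecular identifiers, so the counting error of captured molecules could be larger and was not measured.

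**Figure D2:**
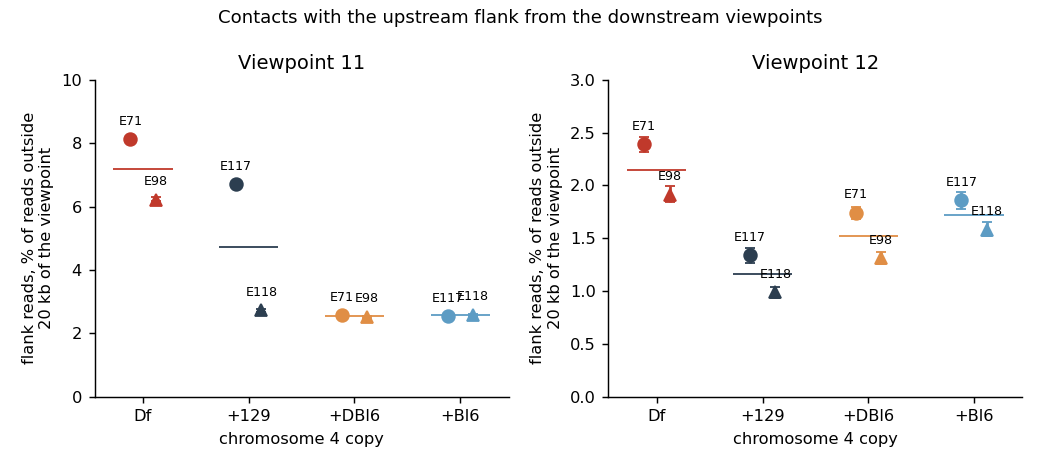
Flank share of reads (percent of chromosome 4 reads outside 20 kb of the viewpoint) at viewpoints 11 and 12, for each library of each chromosome copy. Bars are 95% Wilson intervals and horizontal lines group means of 2 libraries. Both Df libraries are the highest at viewpoint 12, and at viewpoint 11 the library labelled +129 of E117 lies between them at 6.7%.

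By reads, the homologue in the same cells was near its control. From viewpoint 11 the C57Bl6 chromosome gave 2.57% and 2.52% of reads to the flank in the deletion lines (+DBl6) and 2.54% and 2.59% in the control lines (+Bl6). The libraries of E71 and E117 among these are the ones that shared 62.2% of fragments, so their values are not independent. From viewpoint 12 the values were 1.74% and 1.31% against 1.86% and 1.58%. By captured fragments the homologue differed at viewpoint 11, where the flank made up 8.47% and 7.01% of captures on +DBl6 and 6.38% and 4.74% on +Bl6, with no overlap. At viewpoint 12 it made up 3.25% and 2.99% against 2.74% and 3%. Within a line, the 129S5 share divided by the C57Bl6 share was 1.37 and 1.46 in the deletion lines and 0.72 and 0.624 in the control lines at viewpoint 12, a 2.11-fold difference with no overlap (exact two-sided permutation p = 0.333). At viewpoint 11 the same quotient was 3.17 and 2.47 in the deletion lines, 2.64 in E117 and 1.05 in E118 (exact permutation p = 0.667). The log2 difference there was 0.75 with E117 and 1.41 without it.

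The flank was also set against the 2.08 Mb that adjoin it on the far side from the deletion, since the quotient of reads in both stretches cancels changes that they share. At viewpoint 11 it was 8.9 and 9.8 on Df, 7.39 in the library labelled +129 of E117 and 2.16 on +129 of E118, a ratio of 2.34 (log2 1.23), with log2 2.12 without E117. At viewpoint 12 it was 0.689 and 0.554 on Df and 0.397 and 0.291 on +129, a ratio of 1.82 (log2 0.86). Df was above +129 in every library at both viewpoints, and the exact two-sided permutation p was 0.333 for each, the smallest possible. Where captured fragments were counted in place of reads, the log2 ratio was 0.64 at viewpoint 11 and 0.25 at viewpoint 12.

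Along the flank, the difference from viewpoint 11 was widest next to the deletion. In the 0.5 Mb bordering it, Df of E71 and E98 had 6170 and 4490 RPM per 100 kb, the library labelled +129 of E117 had 4502 and +129 of E118 had 1311. The ratio of Df of E98 to +129 of E118, the batch without the doubtful library, was 3.43 there, 2.33 and 2.29 in the next parts, and 1.36 in the part over 1.5 Mb away, where Df had 3518 and 1977 and +129 of E118 had 1458. The deletion-side 1.04 Mb took 62.2% and 61.1% of flank reads on Df and 56.5% and 50.6% on +129 (log2 difference of 0.21, exact permutation p = 0.333, and 0.29 without E117). From viewpoint 12 no such slope was seen. The largest ratio of means, 3.37, was in the part 1 to 1.5 Mb from the deletion, with 1449 and 1051 RPM per 100 kb on Df and 566 and 175 on +129. In the 0.5 Mb next to the deletion Df had 1130 and 756 and +129 had 576 and 667. The deletion-side share was 37.8% and 42.8% on Df and 39.1% and 55.7% on +129, which overlapped, and its direction turned without E118.

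**Figure D3:**
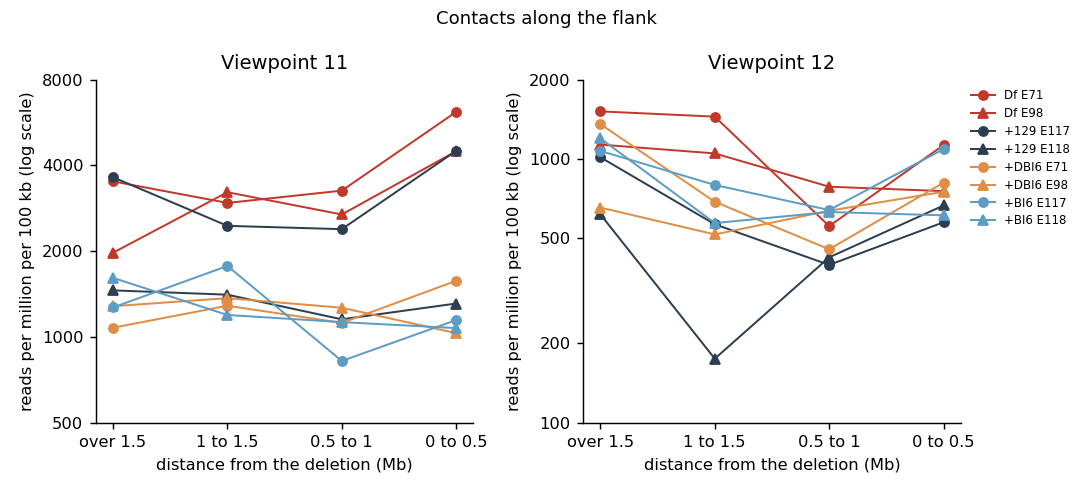
RPM per 100 kb (log axis) in 4 parts of the flank ordered by distance from the deletion, for each library at viewpoints 11 and 12. Lines join the values of 1 library. At viewpoint 11 the Df lines are at 6170 and 4490 next to the deletion against 1311 for +129 of E118, and at viewpoint 12 the widest gap lies 1 to 1.5 Mb away.

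The level the flank reached on Df was also set beside sequence that lies equally far from the viewpoint on +129, inside the deleted interval. This is a description without a test, and E118 is the reference at viewpoint 11. The 0.5 Mb next to the deletion lies 0.54 to 1.04 Mb from viewpoint 11 on Df. Its 6170 and 4490 RPM per 100 kb on Df compared with 5211 at that distance on +129 of E118, ratios of 1.18 and 0.862. In the part over 1.5 Mb from the deletion, 2.04 to 2.62 Mb from the viewpoint on Df, the 3518 and 1977 of Df were 15.1 and 8.51 times the 232 measured at that distance on +129 of E118. That reference was low, because on +129 of E118 itself this part of the flank, 6.37 to 6.95 Mb away, had 6.27 times as much. From viewpoint 12 the picture differed. In all 4 parts both Df libraries were below +129 at equal distance, between 0.129 and 0.631 times the E118 value. The undeleted sequence used for this comparison is another stretch with other genes and fragments, so distance is not the only thing that differs.

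At the level of single fragments, the flank made up more of the captured fragments on Df than on +129, and at viewpoint 11 the intact homologue differed the same way, as given above. From viewpoint 11 Df captured 306 and 357 members (E71 and E98), against 259 and 327 on +129, which was 12.4% and 8.85% of all captured fragments against 7.85% and 4.99%. From viewpoint 12 it captured 126 and 189 against 122 and 146, or 3.83% and 3.93% against 2.32% and 2.36%. At viewpoint 11, 20 members were captured on both Df libraries and on neither +129 library, of 451 members captured in any, and 3 showed the reverse. Over all fragments outside the deleted interval captured in any of the 4 libraries, 0.924% were captured on both Df and neither +129 and 3.19% showed the reverse. Without the library labelled +129 of E117 the counts were 58 and 25 of 448, against 2.7% and 41.9% over all fragments. At viewpoint 12 the counts were 24 and 11 of 333, against 2.13% and 5.2% over all fragments. Total captures differed between the libraries (2467 and 4035 on Df and 3299 and 6552 on +129 at viewpoint 11), and their part in these counts was not tested. The 2 alleles of a line also shared distant captured fragments. At viewpoint 11, Df and +DBl6 shared 53.8% in E71 and 64.3% in E98, against 33.9% between the Df lines. At viewpoint 12 these values were 30.4% and 37%, against 28.7%. Whether reads assigned to the wrong allele add to the captures was not tested.

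Single 80 kb windows were tested with edgeR's quasi-likelihood test over the whole chromosome. The windows leave out only the zone of the library's own viewpoint. The flank window chr4:148880001-148960000 therefore keeps the fragments around viewpoint 2 that were left out of the members. At viewpoint 11 none of the 26 flank windows passed an adjusted p of 0.05, none had an unadjusted p under 0.05, and 0% of the 822 windows tested on the chromosome were called, by DESeq2 as well. The flank windows had a median log2 change of 0.41, against 0.07 over all windows outside the deleted interval, and 18 of 26 were positive. Both Df libraries were above both +129 libraries in 9 of the 26, and below in 0. Among the 9 is the window that keeps the fragments around viewpoint 2. Over all tested windows outside the deleted interval, 9.76% were above and 8.34% below in this way. Without the library labelled +129 of E117, 3 of the 26 had an unadjusted p under 0.05 and none was called by edgeR, the median log2 change was 1.62 against 0.21 outside the deleted interval, and 23 were positive. Both Df libraries were then above +129 of E118 in 18 and below in 3, against 19.1% and 36.1% of windows outside the deleted interval. At viewpoint 12, 1 of 25 flank windows was called, while 4.02% of 1119 windows were called on the chromosome, 44 of the 45 lower and all but 2 inside the deleted interval. The median log2 change was 0.99 in the flank and 0.15 outside the deleted interval, and 19 of 25 flank windows were positive. Both Df libraries were above both controls in 11 of 25 and below in 2, while 17.7% of windows outside the deleted interval were above and 19.3% below. Within the purification batches, 17 of 26 windows at viewpoint 11 and 18 of 25 at viewpoint 12 moved the same way in both. Of these, 15 had a positive and 1 a negative log2 change at viewpoint 11, where chr4:149600001-149680000 was at 0. At viewpoint 12, 15 were positive and 3 negative. The share over all windows was not computed, and 1 of the batches at viewpoint 11 rests on the library labelled +129 of E117.

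The called window, chr4:148960001-149040000, holds the whole of Clstn1 and the 3′ part of Pik3cd and lies 1044 kb from the deletion. From viewpoint 12 it held 432 and 74 reads on Df of E71 and E98, or 2476 and 525 RPM, and 7 reads in each +129 library, or 60.2 and 47.6 RPM. The log2 change was 4.78 (edgeR's quasi-likelihood test, adjusted p = 0.0387), and 4.43 with the batch as a block (adjusted p = 0.00926). The filter asks for 10 reads in at least 50% of the libraries, so with 7 reads in each +129 library this window was tested only because of its reads on Df, the group in which it was high. The reads came from 5 and 8 captured fragments on Df, of which the leading one held 56.2% and 59.5%, and these were different fragments in the 2 lines. On the C57Bl6 chromosome the same window held 4 and 75 reads on +DBl6 and 69 and 79 on +Bl6, so the low value on +129 was not shared by +Bl6. The call rested on all 4 libraries. Without +129 of E117 or of E118 the adjusted p was 0.997 or 1, without either Df library the window had too few reads to be tested, and by captured fragments the log2 change was 1.31 (adjusted p = 0.508). From viewpoint 11 this window had the second highest log2 change among those named, with 679 and 2100 RPM on Df and 179 and 603 on +129 (log2 change of 1.98, edgeR adjusted p = 0.997, and 1.46 without E117).

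The other windows named by rank did not pass the test. From viewpoint 11 the highest was chr4:149440001-149520000, with Gpr157 (an orphan receptor) and Slc2a5, at 1990 and 4540 RPM on Df and 537 and 708 on +129 (log2 change of 2.42, edgeR adjusted p = 0.997, and 2.46 without E117). The third was chr4:148640001-148720000 with the 5′ end of Kif1b and the 3′ end of Ube4b, at 1960 and 4600 against 475 and 1350 (log2 change of 1.97, and 1.53 without E117). The lowest was in Casz1, chr4:148240001-148320000, at 3130 and 547 against 4570 and 644 (log2 change of -0.77, which turned to 1.73 without E117). From viewpoint 12 the next highest were a Slc25a33 window, chr4:149120001-149200000, at 223 and 631 against 17.2 and 136, and a Rere window, chr4:149760001-149840000, at 670 and 1180 against 155 and 259. Both overlapped the C57Bl6 chromosome. The Slc25a33 window was at 223 and 836 on +DBl6 and 305 and 537 on +Bl6. The Rere window was at 1007 and 697 on +DBl6 and 1420 and 42.4 on +Bl6. The lowest was the last window before the deletion, chr4:150000001-150080000 with Slc45a1, at 22.9 and 156 on Df against 662 and 313 on +129 (log2 change of -2.35, edgeR adjusted p = 0.987). The same window was at 5620 and 4490 on Df and 5100 and 744 on +129 from viewpoint 11. Windows in H6pd and Ctnnbip1 were also lower from viewpoint 12, with log2 changes of -0.80 and -0.66. The Ctnnbip1 window keeps the fragments around viewpoint 2. The viewpoint 2 fragment itself led there on Df of E98, with 53 of 84 reads.

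**Figure D4:**
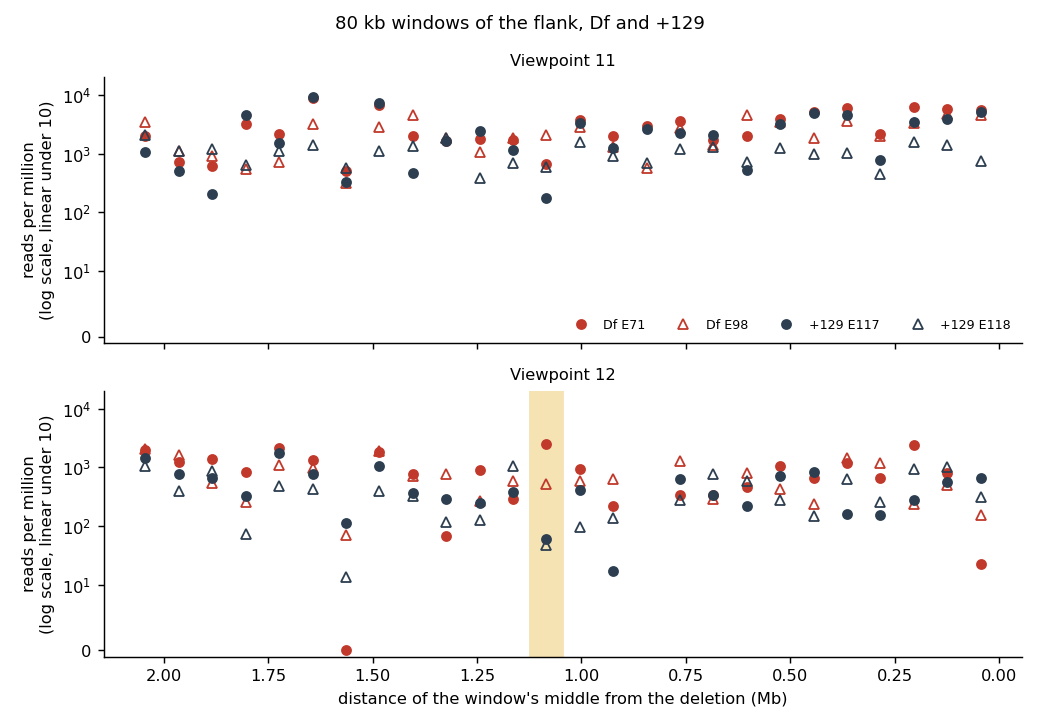
RPM (log axis, linear under 10) in each tested 80 kb window of the flank, plotted by distance of its middle from the deletion, for Df and +129 at viewpoints 11 and 12. Points are libraries, and the shaded band is the only flank window called, at 2476 and 525 on Df against 60.2 and 47.6. A window with too few reads at viewpoint 12 is not drawn.

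Gene bodies of at least 20 kb gave 15 genes. From viewpoint 11 both Df libraries were above both +129 libraries in 9 of them (Ube4b, Clstn1, Tmem201, Slc25a33, Spsb1, H6pd, Slc2a5, Rere and Slc45a1) and below in 0, while 6.42% of the 576 such genes outside the deleted interval on the chromosome were above and 12% below. The other 6 overlapped, namely Gm572, Casz1, Pex14 and Kif1b, which lie farthest from the deletion, and Ctnnbip1 and Pik3cd among the rest. Without the library labelled +129 of E117, 12 were above +129 of E118 and 1 below, against 15.3% and 45.2% of genes. From viewpoint 12 it was 4 of 15 (Kif1b, Pik3cd, Tmem201 and Rere), with Slc45a1 below, against 12.5% of 586 genes above and 19.8% below. Tmem201 and Rere were above at both viewpoints.

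Rere, with 104 fragments, is the best sampled gene. From viewpoint 11 it had 5912 and 3974 RPM per 100 kb on Df of E71 and E98, 3690 in the library labelled +129 of E117 and 1301 on +129 of E118. Its C57Bl6 levels were 1873 and 1086 on +DBl6 and 1343 and 1308 on +Bl6. From viewpoint 12 Rere had 1589 and 970 on Df and 342 and 824 on +129. Its C57Bl6 levels there were 1027 and 815 on +DBl6 and 1215 and 642 on +Bl6, so Df of E98 lay within their range. The Df levels were thus the highest of the 129S5 chromosomes at both viewpoints, by 1.6 and 3.06 times within the batches at viewpoint 11 and by 4.65 and 1.18 times at viewpoint 12.

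Slc2a5, with 9 fragments, had 1488 and 8321 RPM per 100 kb on Df and 154 and 1201 on +129 from viewpoint 11. From viewpoint 12 it had 656 and 476 on Df and 645 and 859 on +129, which overlapped. Clstn1, with 8 fragments, had 1073 and 2248 on Df and 279 and 574 on +129 from viewpoint 11. From viewpoint 12 it had 9.09 and 214 on Df and 95.5 and 10.8 on +129, which overlapped, and the leading Df fragments of the called window lie in Pik3cd. Pik3cd, its neighbour on the opposite strand, had 5195 and 1464 on Df from viewpoint 12, which was 8.36 times +129 of E117 and 12.5 times +129 of E118, and 5639 and 4515 against 5612 and 2886 from viewpoint 11. The level of Pik3cd from viewpoint 12 was also high on +DBl6, at 3744 and 1986, and lower on +Bl6, at 944 and 559. Slc45a1 rests on 2 fragments, with 1969 and 862 on Df and 342 and 60 on +129 from viewpoint 11, and 0 and 426 against 1032 and 680 from viewpoint 12. Pex14 shows how the doubtful library acts, at 7311 and 2314 on Df, 7359 in the library labelled +129 of E117 and 1607 on +129 of E118.

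On the intact homologue, the share of reads in the flank was compared between +DBl6 and +Bl6 at all 12 viewpoints. The median ratio was 1.01. At the 6 viewpoints with 2 libraries in each group, +DBl6 was above +Bl6 without overlap at viewpoint 2 (84.3% ± 0.682 against 77.5% ± 4.42, SD, n = 2 each) and viewpoint 3 (8.21% ± 0.597 against 7.4% ± 0.102), and overlapped at the other 4. Larger ratios, of 6.46 at viewpoint 7 and 4.16 at viewpoint 8, came from shared pairs counted as 1 library in which a single fragment held most flank reads. At viewpoint 7 the 0.504% of +DBl6 stood against 0.252% and the 28-read value of 0.0241% on +Bl6. The lowest ratios were 0.567 at viewpoint 9 and 0.724 at viewpoint 4, each with a shared pair as well. By captured fragments the median log2 ratio over viewpoints was 0.41, against 0.01 by reads. No adjusted p was under 0.8 (exact two-sided permutation test, Benjamini-Hochberg over 12). By 80 kb windows, 2 of 270 flank tests over the 12 viewpoints were called, against 0.384% of 10166 tests on the chromosome. One was the Clstn1 window, chr4:148960001-149040000, from viewpoint 2 (log2 change of 1.23, edgeR adjusted p = 0.00367), the window after the one that holds viewpoint 2. The other was chr4:149600001-149680000, with Eno1 (the glycolytic enzyme enolase) and the start of Rere, from viewpoint 8 (log2 change of 4.68, edgeR adjusted p = 0.0168), where +DBl6 is 1 library, a shared pair added up, that is assumed to vary like the +Bl6 libraries, and it holds the single fragment named above. Neither was called without E71 or without E98.

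Between the strains in control cells the flank share was alike at most viewpoints. The median ratio of +129 over +Bl6 was 1.01 over 12 viewpoints. Both +129 libraries were above both +Bl6 libraries at viewpoints 7 and 11 and below at viewpoint 12 (1.16% ± 0.249 against 1.72% ± 0.195, SD, n = 2 each), and the excess at viewpoint 11 included the library labelled +129 of E117, without which +129 was at 2.73% against 2.54% and 2.59%. No window of the flank was called in 224 tests by edgeR's quasi-likelihood test or by DESeq2, with 7 and 13 at an unadjusted p under 0.05, and 0.0101% of 9948 tests were called on the chromosome. The low flank share of +129 at viewpoint 12 is the baseline of the Df comparison there. The lower Df library there, at 1.91%, was above the higher +Bl6 library, at 1.86%, and this difference was not tested.

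For the upstream viewpoints, whose distance to the flank the deletion leaves as it was, Df is given as values only. From viewpoint 1 Df gave 20.8% and 20.9% of reads to the flank and +129 gave 22.6% and 23.4%. From viewpoint 2 Df gave 82.1% and 83.4% and +129 gave 72.6% and 81%.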

How the data were processed

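PE-4Cseq libraries were made from passage 4 MEFs with HindIII as first enzyme and 30 PCR cycles. The authors assigned read pairs to an allele, trimmed interacting reads to 30 bases and aligned them with Bowtie (version not given in the sources used here), keeping unique hits with at most 3 mismatches to HindIII fragments of mm9. What the authors deposited is unnormalized counts of reads on each fragment, and all 48319 HindIII sites of NCBIM37 chromosome 4 matched their ends. The 16 deposited region tables list start and end of the authors' own differential regions and were not used. Lines E71 and E117 were purified with columns, E98 and E118 with magnetic beads.

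Reads outside 20 kb of the viewpoint were summed in the flank, in 80 kb windows (at least 10 reads in at least 50% of libraries) and in bodies of genes of at least 20 kb (fragment midpoint inside). Viewpoint zones were measured from the end of the viewpoint fragment. Replicates whose log reads correlated above 0.9 were added up, and libraries under 1000 reads gave no value. The latter rule was set after the libraries were seen. Shares were compared with exact permutation tests (scipy 1.17.1), windows with edgeR 4.0.16 (R 4.3.3, TMM, Benjamini-Hochberg over all windows), tested on simulated data, and DESeq2 1.42.0 as an alternative. The 80 libraries other than Df at viewpoints inside the deletion held 444 to 3969613 chromosome 4 reads. At viewpoints 11 and 12 they held 148675 to 3969613, of which 1451 to 31393 fell in the flank. Named windows are the called ones and the 3 highest and 3 lowest log2 changes per viewpoint with 1 sign in both batches. Named fragments are the 5 captured in most control libraries and both edges, and the end of the deleted interval was added later. The members and lists were chosen with earlier results of these data known. Replicate numbers do not pair samples by origin, so the purification batch served as the block.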

Additional observations from a re-analysis of the deposited data

Results flagged for a closer look

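Libraries labelled Df at the viewpoints inside the deletion were not part of any comparison, because Df lacks those viewpoints. More than 3 flank reads, the limit that a count of 0 allows, were nevertheless present in 15 of these 16 libraries, with 2 to 393 reads in the flank. The total reads of 15 of the 16 came to 0.0442% to 0.636% of the +DBl6 library of the same line and viewpoint, and to 37.5% at viewpoint 10 in E98. The +DBl6 library of E98 there is also the one that shared fragments with +Bl6 of E118. Of 442 captures of flank fragments in them, 368 (83.3%) were also captures of that +DBl6 library.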

How the results depend on the processing

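Over 28 results and 250 alternatives, 214 values stayed within the limits set, and the cause of the others was not tested. For Df against +129 the log2 ratio of the flank share stayed positive in all alternatives at both viewpoints. Leaving out 1 library at a time it ran from 0.09 to 1.38 at viewpoint 11 and from 0.68 to 1.12 at viewpoint 12, and with the replicate block, within the purification batches, it was 0.28 and 1.19 at viewpoint 11 and 0.84 and 0.95 at viewpoint 12. Reads capped at the 99th percentile gave 0.37 at viewpoint 11. The deletion-side share at viewpoint 12 ran from -0.47 to 0.04 without 1 library, turning positive without +129 of E118. The count of 1 called flank window at viewpoint 12 fell to 0 with 500 kb bins and with captured fragments, and was 0 without any 1 library. For +DBl6 against +Bl6 the 2 calls became 0 with 500 kb bins or captured fragments, 6 with DESeq2 (2 higher, 4 lower), 1 with library totals, 18 with all libraries as labelled (9 each way), and 0 to 2 without 1 library. The block could be fitted at 6 viewpoints, not at viewpoint 8, and called 1 higher and 1 lower. For +129 against +Bl6 the count of 0 became 1 (lower) with library totals, 23 with all libraries as labelled and 1 (lower) with the replicate block of MEF lines, and leaving out a line left 1 library against 1, with no test. Genes with all Df above all +129 libraries numbered 5 with capped reads at viewpoint 11 (8 by captured fragments) and 8 by captured fragments at viewpoint 12, and 10 to 12 and 4 to 9 without 1 library, alternatives chosen after seeing the data. The share of all genes above rose too, to 13% and 20.8% by captured fragments, 15.3% to 28.3% and 22.7% to 34.4% without 1 library, so that 4 of 15 at viewpoint 12 stood beside 24.7%. Members captured on all Df and no +129 libraries numbered 34 to 66 at viewpoint 11 and 32 to 86 at viewpoint 12 without 1 library, also chosen later. Of these, only the count without +129 of E117 at viewpoint 11 has a share over all fragments beside it. That share rose to 2.7%, from 0.924% with all libraries. For the other counts it was not computed, so they cannot be read as results about the flank. By captured fragments the log2 change turned to 0.32 in the Casz1 window at viewpoint 11, and to 0.16 in the Ctnnbip1 and 0.44 in the H6pd window at viewpoint 12. Without 1 library the Casz1 window ran from -2.62 to 1.73, turning without +129 of E117, and the Ctnnbip1 window from -1.32 to 0.26, turning without +129 of E118. Keeping libraries under 1000 reads, also chosen later, gave median log2 ratios of 0.06 and 0.01 over viewpoints. Depth limits the low shares, since flank reads at viewpoint 12 numbered 1451 to 4174 per library and only a few fragments carry them.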
